A study of Homo sapiens with 4 samples.

Results

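The genes described here build and run the mitotic apparatus: the kinases and cyclins that start mitosis, the kinesins that shape the spindle, the condensins, the kinetochore and checkpoint proteins, and the machinery that splits the cell. They were chosen by name, as a list of 58 genes, and every probe set listed for only 1 of them on the array was read. This gave 90 probe sets for 57 genes, out of 22277 probe sets and 11963 genes measured in the series. ANLN has no probe set of its own in the gene table used and is not analysed here. The list was drawn up with earlier results of these data known, so the direction of the genes as a group is a description and not a test of it.

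RNA came from MDA-MB231 cells, a human breast cancer cell line, in 4 conditions with 1 array each. The PIAS1 shRNA2 line stably carries a short hairpin RNA against PIAS1, a SUMO ligase and transcriptional regulator, and the control shRNA line carries a scramble hairpin; per the study's methods, both hairpins were delivered by lentivirus and driven by the U6 promoter. Each line was kept for 30 h in stem cell media (SCM) or in DMEM plus 10% FBS (DMEM). SCM is a DMEM/F-12 base with albumin, EGF, basic FGF and insulin, which the study describes as serum-free. With 1 knockdown line, the loss of PIAS1 and any other difference between the lines cannot be told apart, and with 1 array per condition no value below has an error or a test. The PIAS1 probe set with the highest signal read 671 with PIAS1 shRNA2 and 1814 with control shRNA in SCM, which is 37.0%, and 512 with PIAS1 shRNA2 and 1383 with control shRNA in DMEM, which is 37.0% too. Another PIAS1 probe set read 31.5% of control in SCM and 23.8% in DMEM. The dimmest read 77.9% in SCM and at most 27.6% in DMEM, where its signal with PIAS1 shRNA2 lay under the background floor described next.

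Values are signal intensities of the array, and a ratio is given on the log2 scale, so that -1 is a 2-fold lower signal. The knockdown ratio of a gene is that of the PIAS1 shRNA2 line over the control line in the same medium. Signals under a background floor of 189, set from 49 genes of other tissues, were raised to it before a ratio was taken. The 4 arrays were alike in scale, with median signals of 605 (PIAS1 shRNA2) and 605 (control) in SCM and 591 (PIAS1 shRNA2) and 569 (control) in DMEM, and 64.0% to 67.7% of probe sets lay above the floor. The 3' to 5' signal ratio of ACTB, a sign of RNA quality, was 1.11 with PIAS1 shRNA2 and 1.07 with control shRNA in SCM, and 0.946 with PIAS1 shRNA2 and 0.982 with control shRNA in DMEM, and that of GAPDH lay between 0.834 and 0.879. All 6 basal and mesenchymal markers of MDA-MB231 lay above the floor on every array, with a summed signal between 235062 and 254018. Of 8 luminal markers 5 lay above the floor on each array, while PGR, FOXA1 and CDH1 did not. The luminal markers' summed signal was 17699 (PIAS1 shRNA2) and 26329 (control) in SCM, against 9598 (PIAS1 shRNA2) and 11350 (control) in DMEM. Of 5 leukocyte and endothelial markers 2 or 3 lay above the floor, PTPRC and CDH5 on no array, and their sum was 4464 (PIAS1 shRNA2) and 3868 (control) in SCM, against 908 (PIAS1 shRNA2) and 1254 (control) in DMEM. No marker was at 0. The luminal, leukocyte and endothelial sums and the ACTB ratio moved with the medium. In SCM single genes gave most of these sums, KRT19 with 12434 (PIAS1 shRNA2) and 18700 (control), and PECAM1 with 3297 (PIAS1 shRNA2) and 2188 (control). In each line 4 of the 5 luminal markers above the floor were higher in SCM than in DMEM. GATA3 was lower, with a log2 ratio of -1.47 in the PIAS1 shRNA2 line and -0.96 in the control line. The 5 luminal markers above the floor were also below control with PIAS1 shRNA2 in SCM, with a median knockdown ratio of -0.59, beside -0.17 in DMEM. The lowest in SCM was ESR1, at -0.99 on its brightest probe set, with 357 (PIAS1 shRNA2) and 706 (control). The paper reports ESR1 as induced by PIAS1 knockdown, so this value runs the other way. The part of these markers and of RNA quality in the results below was not tested.

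Mitosis starts when CDK1 pairs with A and B type cyclins and is freed of its inhibitory phosphates by CDC25 phosphatases. Most genes of the apparatus are transcribed late in the cell cycle, when the MuvB core works with B-MYB and FOXM1, and are held off in resting cells by the DREAM complex. Both complexes act at a short promoter element, the cell cycle genes homology region (CHR), often with CCAAT boxes bound by NF-Y just upstream. Because the RNA is from whole cultures, fewer cells in the late cell cycle and less RNA in each such cell cannot be told apart.

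To show this promoter architecture, the stretch of 150 bases before to 25 bases after the RefSeq start of transcription (GRCh38.p14) is printed for 5 genes. KIF23, PLK1, DLGAP5 and BUB1 had the lowest knockdown ratios in SCM among genes whose window holds both motifs, and ZWINT had the highest ratio of all 57 genes. Capitals mark every CHR match (TTTGAA or TTCGAA) and every CCAAT match, on either strand, so that TTCAAA and ATTGG are matches on the other strand; TTCGAA reads alike on both. The positions are chr15:69414199-69414373 on the plus strand for KIF23, chr16:23678739-23678913 on the plus strand for PLK1, chr14:55191561-55191735 on the minus strand for DLGAP5, chr2:110678039-110678213 on the minus strand for BUB1, chr10:56361235-56361409 on the minus strand for ZWINT.
KIF23: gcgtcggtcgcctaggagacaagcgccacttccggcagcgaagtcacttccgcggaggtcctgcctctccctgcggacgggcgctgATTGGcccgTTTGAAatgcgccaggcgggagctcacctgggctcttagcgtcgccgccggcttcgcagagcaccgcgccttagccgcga
PLK1: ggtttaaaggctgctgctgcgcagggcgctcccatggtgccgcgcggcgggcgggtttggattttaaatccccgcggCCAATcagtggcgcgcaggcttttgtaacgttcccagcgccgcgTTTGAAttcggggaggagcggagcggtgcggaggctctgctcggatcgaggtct
DLGAP5: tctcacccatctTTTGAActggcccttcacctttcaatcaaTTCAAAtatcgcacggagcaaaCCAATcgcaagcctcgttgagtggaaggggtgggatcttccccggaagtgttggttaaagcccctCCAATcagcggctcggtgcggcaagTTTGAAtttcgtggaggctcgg
BUB1: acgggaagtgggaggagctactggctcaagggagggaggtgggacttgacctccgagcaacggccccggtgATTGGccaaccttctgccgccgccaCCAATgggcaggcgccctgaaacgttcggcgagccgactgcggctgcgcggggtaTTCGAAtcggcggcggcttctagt
ZWINT: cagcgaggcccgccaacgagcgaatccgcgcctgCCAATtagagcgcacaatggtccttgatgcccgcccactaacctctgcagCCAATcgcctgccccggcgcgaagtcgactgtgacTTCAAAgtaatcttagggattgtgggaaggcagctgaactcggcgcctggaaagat
In PLK1 the CCAAT match begins 73 bases and the CHR match 29 bases before the start, and in KIF23 the matches begin 64 and 55 bases before it. DLGAP5 has 3 CHR and 2 CCAAT matches in its window, and the CHR match of BUB1 begins at base 2 of the transcript. ZWINT carries a CHR match and 2 CCAAT matches as well. Across the RefSeq windows of 250 bases before to 50 after the start, which the table gives for 49 of the 58 genes, 36 genes (73.5%) had a CHR match, against 12.4% of 9563 windows of genes on the array and 16.6% of all 27305 windows. A CCAAT match was found in 35 (71.4%), against 37.3% of genes on the array and 35.7% of all windows, and both motifs in 28 (57.1%), against 5.25% and 6.58%. Matches were counted whether or not they overlapped one another, and a match is a description of the letters only.

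In SCM the mitotic genes were low in both lines. In the PIAS1 shRNA2 line the signal was at least 2-fold lower in SCM than in DMEM for 54 of 57 genes, where 10.4% of all genes above the floor were that much lower, and in the control line this held for 47 of 57, where 10.7% of all genes were. No gene of the group, 0 of 57, was 2-fold higher in SCM in either line, as 10.9% of all genes were in the PIAS1 shRNA2 line and 10.7% in the control line. The median log2 ratio of SCM over DMEM was -2.23 in the PIAS1 shRNA2 line and -1.60 in the control line, while the medians over all genes were -0.01 and 0.04. Both SCM arrays lay below both DMEM arrays for 57 of 57 genes, as they did for 33.4% of all genes. PTTG1, the securin that holds back separase, had the highest of these ratios in both lines, -0.71 with PIAS1 shRNA2 and -0.32 with control shRNA. The lowest was that of KIF23 in the PIAS1 shRNA2 line, at most -4.36, and that of ZWINT, an outer kinetochore adaptor, in the control line, -2.97.

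Within SCM, the PIAS1 shRNA2 line lay below the control line for 56 of 57 genes, where 49.7% of all genes did. For 14 genes the signal was at least 2-fold lower, against 1.44% of all genes, and for 0 it was 2-fold higher, against 2.14%. The median ratio was -0.79, against 0.00 over all genes. In DMEM the same comparison had a median of -0.07, with 40 of 57 genes below 0 where 48.3% of all genes were. There 0 of 57 were at least 2-fold lower, where 0.842% of all genes were, and 0 at least 2-fold higher, where 1.52% were. A list of 57 genes is too small for a count of 0 to differ from these shares, or from the 2.14% in SCM. The knockdown ratio was lower in SCM than in DMEM for 55 of 57 genes, by a median of -0.66 on the log2 scale against -0.01 over all genes. It was lower by at least 1 for 11 genes (19.3%), against 2.70% of all genes, and these were KIF23, PLK1, MKI67, CDC25C, CENPF, DLGAP5, CCNA2, UBE2C, AURKA, TOP2A and BUB1. For 5 genes, against 0.456% of all genes, the knockdown ratio was at least 2-fold lower in SCM and above 0 in DMEM. The order PIAS1 shRNA2 in SCM below control shRNA in SCM below control shRNA in DMEM was held by 56 genes, all but ZWINT, where 18.0% of all genes held it, and these 56 had their lowest signal of the 4 arrays with PIAS1 shRNA2 in SCM, as 20.0% of all genes did. The comparisons of the 4 arrays share arrays, so they are not independent of one another.

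**Figure D1:**
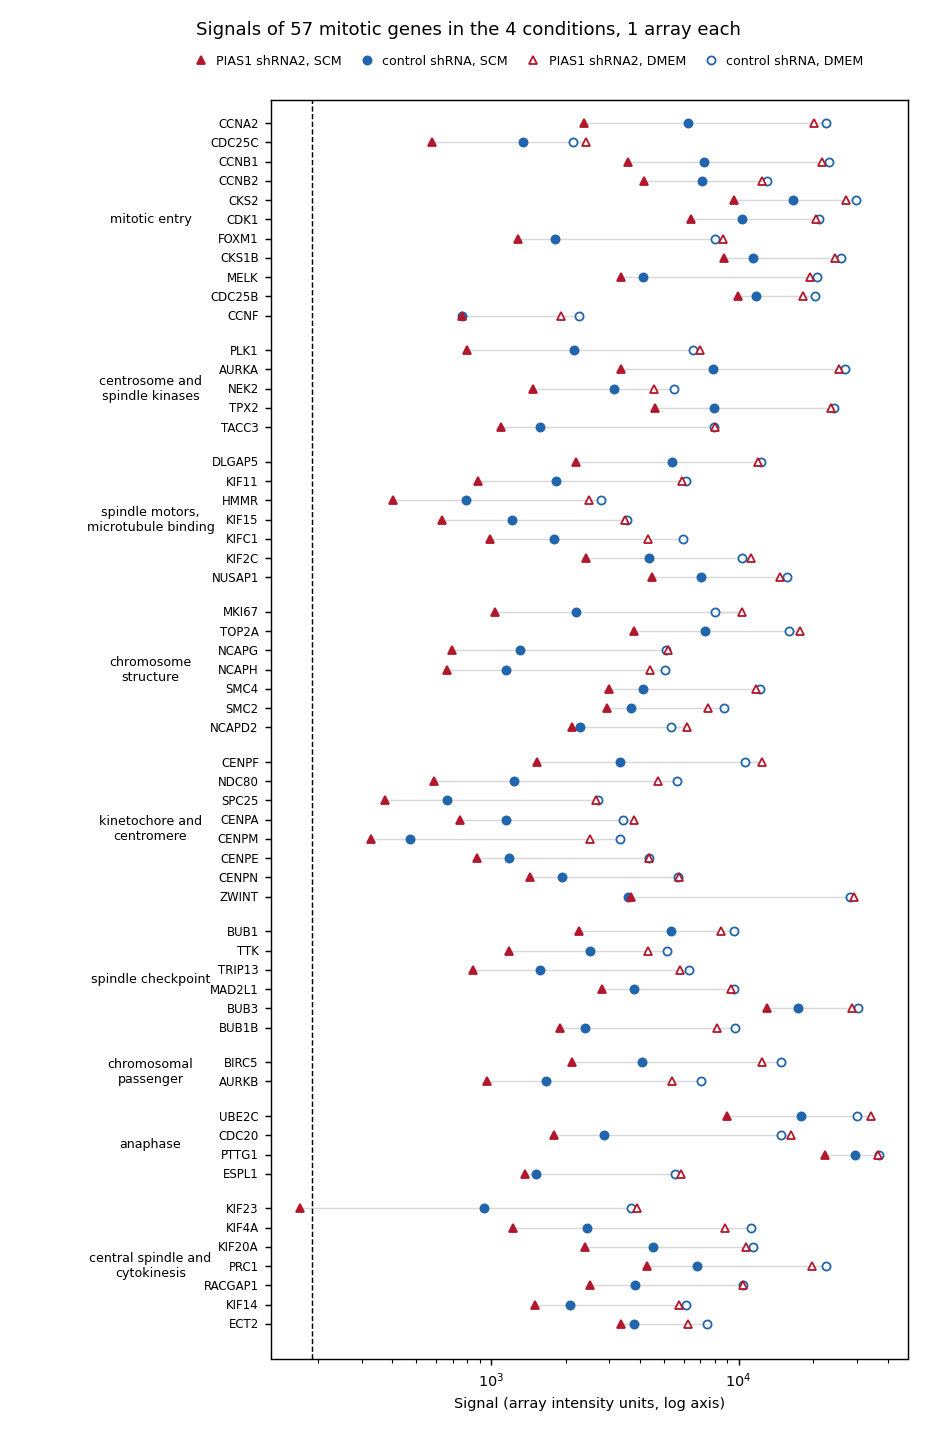
Signal of each of the 57 mitotic genes on the 4 arrays (x axis, array intensity units, log scale), grouped by mitotic stage (y axis); red triangles are PIAS1 shRNA2, blue circles control shRNA, filled symbols SCM, open symbols DMEM, and the dashed line is the floor of 189. The 2 filled symbols lie left of the 2 open ones in every gene, and the filled triangle lies leftmost in 56 of 57.

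The cyclins, phosphatases and regulators of mitotic entry had a median knockdown ratio of -0.69 in SCM and -0.09 in DMEM, with 3 of 11 genes at least 2-fold lower in SCM. CCNA2, the cyclin that serves CDK2 in S phase and CDK1 at entry, read 2374 with PIAS1 shRNA2 and 6241 with control shRNA in SCM, and 20186 with PIAS1 shRNA2 and 22461 with control shRNA in DMEM. Its knockdown ratio was -1.39 in SCM and -0.15 in DMEM, so that the PIAS1 shRNA2 line in SCM kept 10.6% of the signal of the control line in DMEM. CDC25C, the phosphatase that opens the CDK1 switch, read 578 with PIAS1 shRNA2 and 1347 with control shRNA in SCM, and 2424 with PIAS1 shRNA2 and 2136 with control shRNA in DMEM. It was the gene of this stage whose ratios of SCM over DMEM were furthest apart in the lines, -2.07 with PIAS1 shRNA2 and -0.67 with control shRNA. CCNB1, the main mitotic cyclin, read 3572 with PIAS1 shRNA2 and 7277 with control shRNA in SCM, and 21824 with PIAS1 shRNA2 and 23287 with control shRNA in DMEM, a knockdown ratio of -1.03 in SCM, just inside the 2-fold limit.

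CDK1 itself, the kinase these cyclins activate, differed less, with 6400 under PIAS1 shRNA2 and 10358 under control shRNA in SCM, and 20475 with PIAS1 shRNA2 and 21116 with control shRNA in DMEM. Its ratio of -0.69 in SCM comes from the brightest of 3 probe sets, and the other probe sets read -1.22 and -1.17. FOXM1, the transcription factor of late cell cycle genes, read 1291 with PIAS1 shRNA2 and 1812 with control shRNA in SCM, and 8673 with PIAS1 shRNA2 and 8005 with control shRNA in DMEM. Its ratio of SCM over DMEM was among the lower ones of this stage, -2.75 with PIAS1 shRNA2 and -2.14 with control shRNA, while its knockdown ratio in SCM was -0.49. CCNF, the F-box cyclin that degrades mitotic regulators, read 763 with PIAS1 shRNA2 and 766 with control shRNA in SCM, and 1915 with PIAS1 shRNA2 and 2269 with control shRNA in DMEM, so the lines were level in SCM on this probe set. A dimmer CCNF probe set read at most -0.97, its signal with PIAS1 shRNA2 lying under the floor. Of the remaining genes, CCNB2, CKS2 and CKS1B, which are CDK1 partners, had knockdown ratios in SCM of -0.78, -0.78 and -0.39. CDC25B, an early activator of CDK1, and the kinase MELK had -0.24 and -0.30.

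The centrosome and spindle kinases and their partners had the lowest stage median of the knockdown ratio in SCM, -1.09, beside -0.04 in DMEM, with 3 of 5 genes at least 2-fold lower in SCM. PLK1, the Polo kinase that acts at centrosomes, kinetochores and the midzone, read 802 with PIAS1 shRNA2 and 2158 with control shRNA in SCM, and 7014 with PIAS1 shRNA2 and 6551 with control shRNA in DMEM. The knockdown ratio of PLK1 was therefore -1.43 in SCM and 0.10 in DMEM, the lowest of all 57 genes in SCM after KIF23. AURKA, which matures centrosomes and builds the spindle poles, read 3338 with PIAS1 shRNA2 and 7912 with control shRNA in SCM, and 25372 with PIAS1 shRNA2 and 26972 with control shRNA in DMEM. Its ratio of -1.25 was matched by a second probe set at -1.31, while the dimmest one, near the floor with 221 under PIAS1 shRNA2 and 182 under control shRNA in SCM, was at 0.23. NEK2, which lets duplicated centrosomes part, was at -1.09 in SCM and -0.27 in DMEM. TPX2, the activator of Aurora A on spindle microtubules, was at -0.79 in SCM. TACC3, which Aurora A recruits to spindle fibres, read 1093 with PIAS1 shRNA2 and 1578 with control shRNA in SCM, and 8033 with PIAS1 shRNA2 and 7966 with control shRNA in DMEM, the highest ratio of this stage at -0.53.

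Among the spindle motors and microtubule binding proteins, all 7 were at least 2-fold lower in SCM than in DMEM in both lines, and 2 were also at least 2-fold below the control line within SCM. DLGAP5, which stabilises fibres at the kinetochore, read 2196 with PIAS1 shRNA2 and 5379 with control shRNA in SCM, and 11973 with PIAS1 shRNA2 and 12331 with control shRNA in DMEM. KIF11, the Eg5 motor that pushes the poles apart, read 888 with PIAS1 shRNA2 and 1829 with control shRNA in SCM, and 5886 with PIAS1 shRNA2 and 6117 with control shRNA in DMEM. Their knockdown ratios were -1.29 for DLGAP5 and -1.04 for KIF11 in SCM, and -0.04 and -0.06 in DMEM. HMMR, which binds microtubules at the poles, lay just outside the 2-fold limit at -0.99, though its other probe set was at -0.35. KIF15, KIFC1 and KIF2C, kinesins that share pole separation, focus the poles and take apart microtubule ends, were at -0.95, -0.86 and -0.85. NUSAP1, a microtubule bundler, read 4471 with PIAS1 shRNA2 and 7050 with control shRNA in SCM, and 14639 with PIAS1 shRNA2 and 15734 with control shRNA in DMEM, the highest ratio of the stage at -0.66. KIFC1 had the lowest knockdown ratio of all 57 genes in DMEM, -0.47.

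The genes of chromosome structure had a median knockdown ratio of -0.79 in SCM and 0.04 in DMEM. MKI67, the Ki-67 protein that coats mitotic chromosomes and the usual marker of cycling cells, read 1041 with PIAS1 shRNA2 and 2203 with control shRNA in SCM, and 10347 with PIAS1 shRNA2 and 8054 with control shRNA in DMEM. It was thus at -1.08 in SCM and 0.36 in DMEM, the highest DMEM ratio of the 57 genes, and its 4 probe sets lay between -1.21 and -0.59 in SCM. TOP2A, the topoisomerase that untangles sister chromatids, read 3775 with PIAS1 shRNA2 and 7333 with control shRNA in SCM, and 17749 with PIAS1 shRNA2 and 15975 with control shRNA in DMEM, a ratio of -0.96 in SCM. The condensin subunits spanned a wide range. The non-SMC subunits of condensin I, NCAPG and NCAPH, were at -0.92 and -0.79, while NCAPD2 read 2133 with PIAS1 shRNA2 and 2280 with control shRNA in SCM, and 6202 with PIAS1 shRNA2 and 5317 with control shRNA in DMEM, a ratio of -0.10. The shared ATPases SMC4 and SMC2 were at -0.46 and -0.32, and a dimmer SMC2 probe set was at -1.45.

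**Figure D2:**
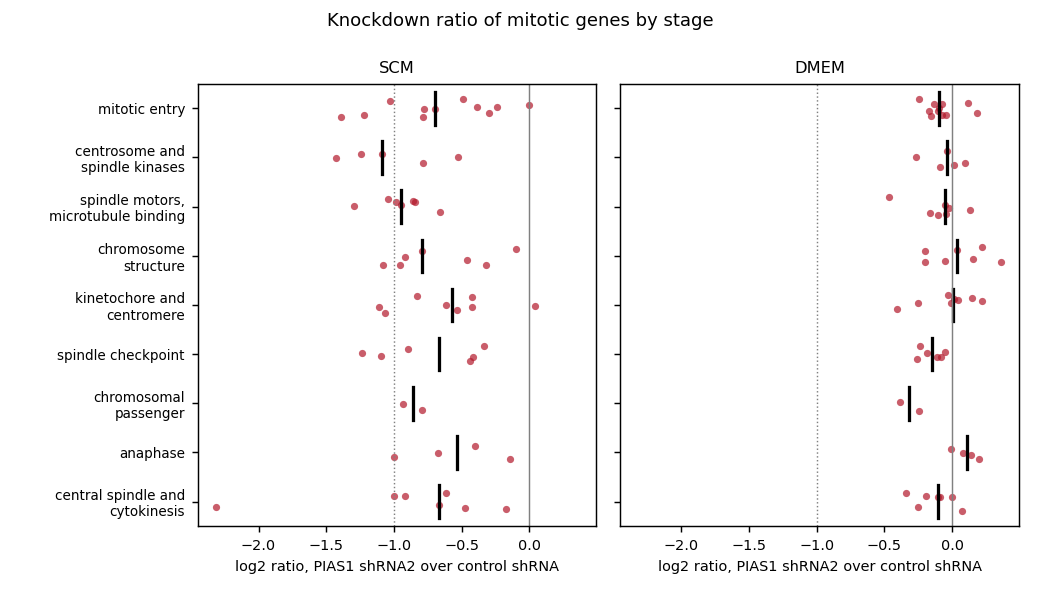
Knockdown ratio on the log2 scale, PIAS1 shRNA2 line over control line (x axis), in SCM, left, and in DMEM, right, for the mitotic genes of each stage (y axis); each point is a gene, black bars are stage medians, the dotted line is a 2-fold lower signal. The stage medians lie between -1.09 and -0.54 in SCM and between -0.32 and 0.11 in DMEM.

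The kinetochore and centromere genes had a median ratio of SCM over DMEM of -2.89 in the PIAS1 shRNA2 line. This was the lowest of the stages, just under the -2.88 of the centrosome and spindle kinases. In the control line the median was -1.96, next to the -1.97 of the passenger genes. The knockdown ratio of the kinetochore and centromere genes in SCM ran from -1.11 to 0.04. CENPF, a large protein of the outer kinetochore, read 1535 with PIAS1 shRNA2 and 3318 with control shRNA in SCM, and 12417 with PIAS1 shRNA2 and 10666 with control shRNA in DMEM, a ratio of -1.11 in SCM. A second CENPF probe set was at -0.08, so the size of this value depends on the probe set. NDC80, the microtubule hook of the kinetochore, read 590 with PIAS1 shRNA2 and 1234 with control shRNA in SCM, and 4732 with PIAS1 shRNA2 and 5640 with control shRNA in DMEM, a ratio of -1.07. SPC25, in the same complex, was at -0.83 and CENPA, the histone of centromeric chromatin, at -0.62. The motor CENPE was at -0.42 and the centromere proteins CENPM and CENPN at -0.53 and -0.42, where another CENPN probe set was at 0.38. ZWINT was the exception in the whole group, with 3692 under PIAS1 shRNA2 and 3591 under control shRNA in SCM, and 29130 with PIAS1 shRNA2 and 28205 with control shRNA in DMEM. Its signal was low in SCM in both lines to the same extent, -2.98 with PIAS1 shRNA2 and -2.97 with control shRNA.

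The spindle checkpoint holds cells in metaphase until each chromosome is attached, and all 6 of its genes were below control in both media on the probe sets used. BUB1, the checkpoint kinase of the kinetochore, read 2271 with PIAS1 shRNA2 and 5343 with control shRNA in SCM, and 8471 with PIAS1 shRNA2 and 9613 with control shRNA in DMEM. TTK, the kinase that starts the checkpoint signal, read 1179 with PIAS1 shRNA2 and 2517 with control shRNA in SCM, and 4308 with PIAS1 shRNA2 and 5146 with control shRNA in DMEM. In SCM both lay at least 2-fold below the control line, BUB1 at -1.23 and TTK at -1.09, and 2 BUB1 probe sets above the floor on all arrays gave -1.23 and -1.17. TRIP13, the ATPase that remodels MAD2, was at -0.89. The direct inhibitors of the anaphase-promoting complex were closer to control. MAD2L1 was at -0.44, and BUB1B, which encodes BUBR1, read 1903 with PIAS1 shRNA2 and 2400 with control shRNA in SCM, and 8220 with PIAS1 shRNA2 and 9668 with control shRNA in DMEM, a ratio of -0.33. BUB3, their partner, read 13083 with PIAS1 shRNA2 and 17458 with control shRNA in SCM, and 28758 with PIAS1 shRNA2 and 30492 with control shRNA in DMEM, a ratio of -0.42, and its 3 other probe sets lay closer to 0, up to -0.06. In DMEM the 4 BUB3 probe sets ran from -0.30 to 0.37, with 2 above 0.

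The chromosomal passenger complex corrects faulty attachments and later marks the midzone. AURKB, its kinase, read 968 with PIAS1 shRNA2 and 1674 with control shRNA in SCM, and 5384 with PIAS1 shRNA2 and 7035 with control shRNA in DMEM. BIRC5, the survivin subunit, read 2124 with PIAS1 shRNA2 and 4060 with control shRNA in SCM, and 12463 with PIAS1 shRNA2 and 14779 with control shRNA in DMEM. Neither reached a 2-fold lower signal, with ratios of -0.79 for AURKB and -0.93 for BIRC5, and 3 BIRC5 probe sets ran from -0.93 to -0.20. These were also below control in DMEM, AURKB at -0.39 and BIRC5 at -0.25.

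The anaphase genes encode securin, separase and drivers of the destruction of cyclin B and securin. Their stage median of the knockdown ratio was the highest in SCM, -0.54, and in DMEM, 0.11. In SCM it lay close to the -0.57 of the kinetochore and centromere genes. It rests on 4 genes, PTTG1 among them, so the order of these stages in SCM is uncertain. UBE2C, the ubiquitin-conjugating enzyme of the anaphase-promoting complex, read 9003 with PIAS1 shRNA2 and 17956 with control shRNA in SCM, and 34351 with PIAS1 shRNA2 and 29954 with control shRNA in DMEM. This is 50.1% of control, so UBE2C lay just outside the 2-fold limit. CDC20, the mitotic activator of that complex, read 1791 with PIAS1 shRNA2 and 2854 with control shRNA in SCM, and 16299 with PIAS1 shRNA2 and 14801 with control shRNA in DMEM, a knockdown ratio of -0.67 in SCM after one of the lowest ratios of SCM over DMEM, -2.37 in the control line. ESPL1, the separase that cuts cohesin, read 1373 with PIAS1 shRNA2 and 1514 with control shRNA in SCM, and 5855 with PIAS1 shRNA2 and 5531 with control shRNA in DMEM, a ratio of -0.14. PTTG1 had the highest signals of the group, 22437 with PIAS1 shRNA2 and 29639 with control shRNA in SCM, and 36669 with PIAS1 shRNA2 and 36922 with control shRNA in DMEM. Its probe set may also take up RNA of near-identical family copies, so its value is uncertain.

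In the central spindle and at cytokinesis, KIF23 stood at the low end of all 57 genes. This kinesin, the motor subunit of centralspindlin, read 170 with PIAS1 shRNA2 and 940 with control shRNA in SCM, and 3887 with PIAS1 shRNA2 and 3693 with control shRNA in DMEM. Its signal with PIAS1 shRNA2 in SCM was the only one of the group under the floor, so its knockdown ratio is a bound, at least 4.98-fold lower, or at most -2.32, on 1 probe set. The size of that bound moves with the floor, to -1.32 with a floor 2 times as high and to -0.64 with the highest array median as floor. RACGAP1, its partner in centralspindlin, was at -0.61 in SCM and -0.00 in DMEM. KIF4A, which limits the length of the midzone, read 1222 with PIAS1 shRNA2 and 2444 with control shRNA in SCM, and 8852 with PIAS1 shRNA2 and 11186 with control shRNA in DMEM, or 50.01% of control, just outside the 2-fold limit. KIF20A, KIF14 and PRC1, which carry and bundle at the midzone, were at -0.92, -0.47 and -0.67. ECT2, the exchange factor that switches on RhoA for the contractile ring, read 3363 with PIAS1 shRNA2 and 3794 with control shRNA in SCM, and 6263 with PIAS1 shRNA2 and 7474 with control shRNA in DMEM, the highest ratio of this stage at -0.17.

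**Figure D3:**
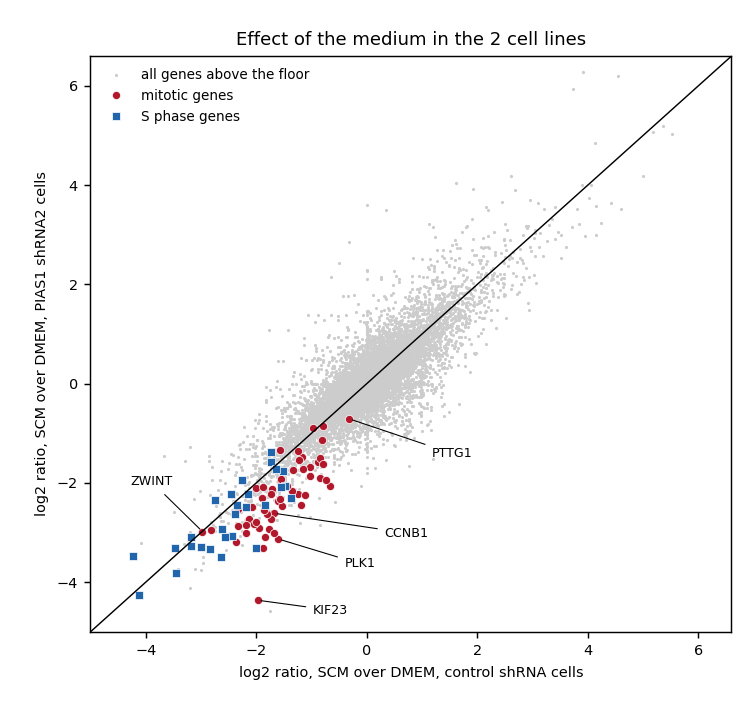
The log2 ratio of SCM over DMEM in the PIAS1 shRNA2 line (y axis) against the control line (x axis) for all genes above the floor (grey), the 57 mitotic genes (red circles) and 28 S phase genes (blue squares); the line marks equal ratios. The mitotic genes lie in the lower left and mostly below the line, KIF23 farthest below it, and ZWINT lies on it; both axes use control or knockdown arrays that other comparisons share.

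The only repeat measure in these data is that between probe sets of the same gene. For 19 genes with 2 or more probe sets above the floor on all arrays, 44 in all, the pooled SD of the log2 ratio between probe sets was 0.32 for the knockdown in SCM and 0.17 in DMEM. Probe sets of 18 of the 19 genes had the same sign in SCM, CENPN being the exception, and of 14 in DMEM. AURKA, BUB1, CCNA2, CDC25C and NEK2 were at least 2-fold lower on each such probe set in SCM, while CDK1, CENPF, MKI67 and SMC2 were on some and not on others. This spread is between probes on 1 array and says nothing of the spread between cultures.

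**Figure D4:**
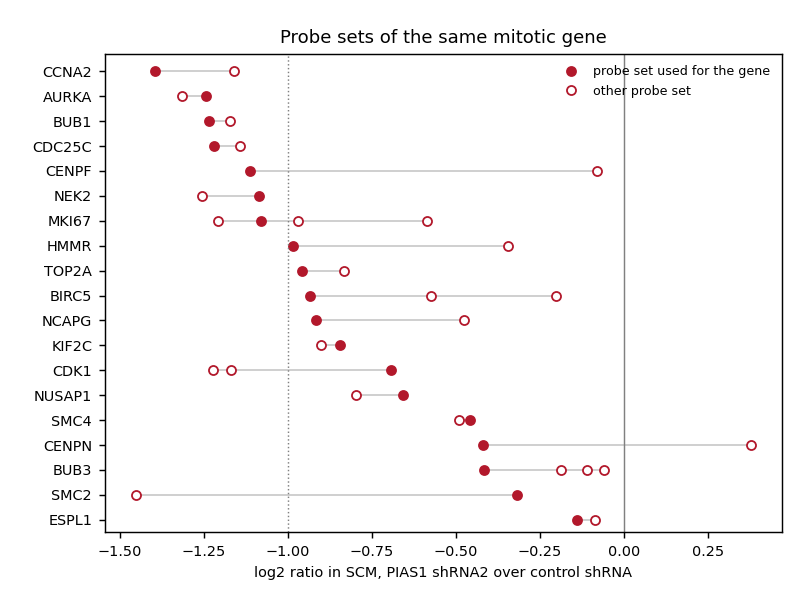
Knockdown ratio in SCM on the log2 scale, PIAS1 shRNA2 line over control line (x axis), for each probe set of the 19 genes (y axis) with 2 or more probe sets above the floor on all arrays; filled points are the probe sets used for the gene, open points the others, and the dotted line is a 2-fold lower signal. The widest gaps are those of SMC2 (-1.45 and -0.32), CENPF (-1.11 and -0.08) and CENPN (-0.42 and 0.38).

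Other genes of the pathway were read from lists of cell cycle genes beside these. Of 31 further kinetochore, spindle and cytokinesis genes above the floor, 25 with PIAS1 shRNA2 and 23 with control shRNA were at least 2-fold lower in SCM than in DMEM. Of all genes, 10.4% and 10.7% were that much lower. Within SCM, 3 of the 31 were at least 2-fold below the control line, against 1.44% of all genes, and the median knockdown ratio was -0.52. These 3 were HJURP, the chaperone that loads CENPA, at -1.47, PLK4, the kinase of centriole duplication, at -1.18, and INCENP, the scaffold of the passenger complex, at most -1.16 with its signal under PIAS1 shRNA2 below the floor. CDCA8, which encodes borealin of the same complex, was at -0.96. Among the regulators, the median of 13 DREAM and E2F genes was -0.09, with MYBL2, which encodes B-MYB, at -0.66. E2F8, a repressor of the E2F family, was at -1.14. Its signal with PIAS1 shRNA2 in SCM, 199, lay just above the floor. PKMYT1 and WEE1, the kinases that put the inhibitory phosphates on CDK1, were at -0.61 and -0.59.

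The 9 subunits of the anaphase-promoting complex itself and 9 cohesin genes had medians of 0.08 and -0.03 for the knockdown in SCM. In each list 0 of 9 were at least 2-fold lower, where 1.44% of all genes were. Lists of 9 genes are too small for a count of 0 to differ from that share. For the medium, their medians were -0.60 and -0.59 in the control line (SCM over DMEM). Of the S phase genes, which copy the genome, all 28 were at least 2-fold lower in SCM than in DMEM in both lines. Of all genes, 10.4% (PIAS1 shRNA2) and 10.7% (control) were that much lower. The medians of the S phase genes were -2.56 with PIAS1 shRNA2 and -2.42 with control shRNA, yet their median knockdown ratio in SCM was -0.26, against -0.79 for the mitotic genes. Within SCM, 1 of 28 was at least 2-fold below the control line, against 1.44% of all genes. This was RRM2, the ribonucleotide reductase subunit, at -1.23. MCM10, a replication factor, read 244 with PIAS1 shRNA2 and 256 with control shRNA in SCM, both near the floor. In DMEM it read 4689 with PIAS1 shRNA2 and 4442 with control shRNA. A CHR match was found in 2 of 26 S phase windows (7.69%) and in 21 of 33 windows (63.6%) of the further kinetochore, spindle and cytokinesis genes, while CCAAT matches were found in 69.2% and 72.7%. Within the 57 genes, a CHR match was present in 8 of 12 windows of genes at least 2-fold below the control line in SCM and in 27 of 36 windows of the others.

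**Figure D5:**
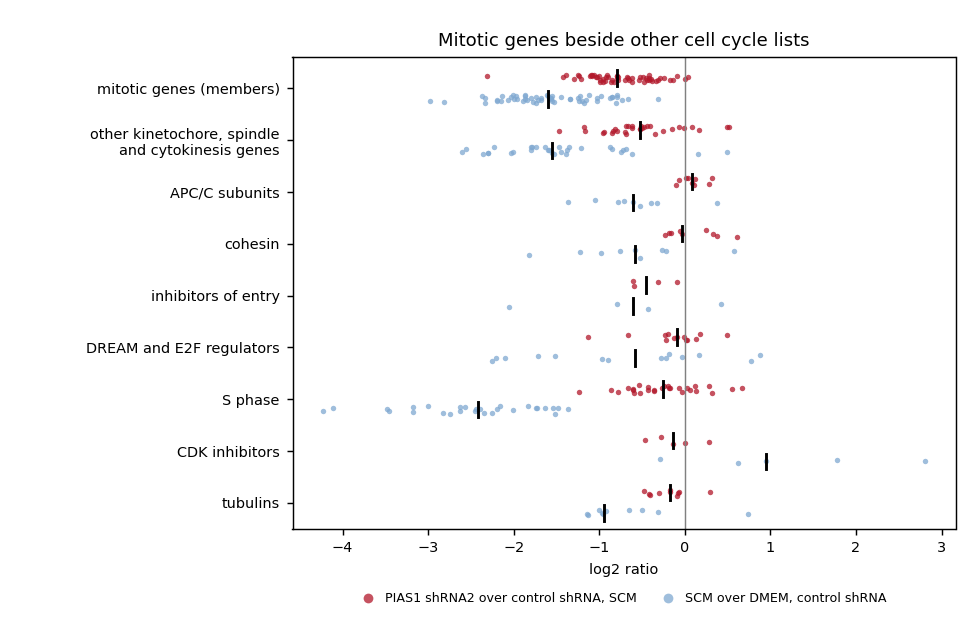
Knockdown ratio in SCM, PIAS1 shRNA2 line over control line (red), and the ratio of SCM over DMEM in the control line (light blue), both log2, on the x axis, for the 57 mitotic genes and other cell cycle lists (y axis); points are genes above the floor and black bars medians. The mitotic genes have the lowest red median, -0.79, and the S phase genes the lowest light blue one, -2.42.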

How the data were processed

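Total RNA of the 4 conditions was hybridised to Affymetrix human genome arrays, 1 per condition. The authors deposited linear signal intensities. MAS5 is named in the submitters' processing notes, with version and settings not given in the sources used here. Each array's mean without the lowest and highest 2% was near 2501 in the deposited table. MAS5 corrects probes by their mismatch partners, so dim signals are the least reliable. All 4 columns were used (0 were left out).

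Of 22277 probe sets, 19070 were listed for exactly 1 gene in the platform's table; 1043 listed for several genes and 2164 for none were left out. The Entrez identifiers of 19058 matched the RefSeq table, which updated 0 symbols. For each gene the brightest probe set by mean log2 signal was taken. As floor served the 75th percentile of 68 probe sets for 49 other-tissue genes, on the highest of the 4 arrays (189), and counts take genes with a signal at or above it in at least 1 of the arrays compared. Medians and 2-fold counts stand in place of tests. Motifs were searched as letters in RefSeq promoter windows.

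The members and lists were chosen with earlier results of these data known. Values on all 4 arrays are given for the 2 lowest and the highest knockdown ratio in SCM of each stage and for PLK1, AURKA, AURKB, CCNB1, CDK1, TOP2A, MKI67, FOXM1, BUB3 and KIF23; PTTG1, MCM10, CDKN1A and CDKN1C were added after their values were seen. Other lists name up to 4 genes of lowest ratio in SCM. GATA3, KRT19 and PECAM1 are named for their weight in or against a marker sum, and ESR1 because the paper reports it as induced. Alternatives were other floors, scalings, probe-set rules and fold limits. The ratio step was tested on simulated data. The work ran in Python 3.11.15 with pandas 2.3.3, NumPy 2.4.6, matplotlib 3.10.9 and SciPy 1.17.1.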

Additional observations from a re-analysis of the deposited data

Results flagged for a closer look

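In 5 of 57 genes, against 0.456% of all genes, the knockdown ratio was at least 2-fold lower in SCM and above 0 in DMEM, so that its sign differed between the media. This contrast of the media was not tested, as no condition has a replicate. Subtracting the DMEM ratio left at most -2.39 for KIF23, whose signal with PIAS1 shRNA2 in SCM lay under the floor, -1.53 for PLK1, -1.44 for MKI67, -1.40 for CDC25C and -1.33 for CENPF. MKI67 had the highest ratio in DMEM of these, 0.36, and each of its 4 probe sets lay below 0 in SCM and above 0 in DMEM. CDC25C had a second probe set at -0.31 in DMEM. A second CENPF probe set was at -0.08 in SCM and 0.23 in DMEM, so CENPF was 2-fold lower on only 1 of its 2 probe sets above the floor. PLK1 and KIF23 have 1 probe set each, and their DMEM ratios, 0.10 and 0.07, were smaller than the pooled SD of 0.17 between probe sets in DMEM.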

How the results depend on the processing

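No paired analysis was possible because each condition has 1 array and the labels carry no replicate numbers. Each summary value was paired with each alternative. Of these pairs, 69 kept about their value and 5 moved, where a count within 1.5-fold of the main one was taken as kept. With probe sets marked as shared between transcripts left out, 38 genes remained. Of these, 35 (PIAS1 shRNA2) and 31 (control) were at least 2-fold lower in SCM than in DMEM, against 10.1% and 10.4% of all genes. Within SCM, 9 lay at least 2-fold below the control line, against 1.56% of all genes, and 34 held the order of the 3 conditions. The 4 that did not were AURKA and CENPN, at 0.23 and 0.38 within SCM on their dimmer probe sets, and CDC25C and CENPF, whose only probe sets left under that rule lay under the floor. At a limit of 1.5-fold, 37 of 57 were lower with PIAS1 shRNA2 in SCM, and the share of all genes at that limit was not computed. Of the pairs of a single gene's knockdown ratio in SCM and an alternative, 359 stayed, and of those that moved 2 turned their sign, AURKA and CENPN as above. Under the other alternatives the count lower with PIAS1 shRNA2 in SCM ran from 10, with the mean of all probe sets (1.65% of all genes), to 15, with arrays scaled to a common median (1.45%). Over all genes, the knockdown in DMEM had 75 at least 2-fold lower and 135 higher (35.7% lower), but 103 and 120 (46.2%) with a common median and 113 and 127 (47.1%) with quantile scaling. The array number limits all values, and neither the spread between cultures nor the cause of any difference was tested.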

Other observations

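The tubulins, the building blocks of the spindle that also serve the interphase cytoskeleton, were lower in SCM than in DMEM by a median of -1.16 in the PIAS1 shRNA2 line and -0.94 in the control line over 10 genes. Their knockdown ratio in SCM had a median of -0.18, with 0 of 10 at least 2-fold lower, where 1.44% of all genes were. A list of 10 genes is too small for a count of 0 to differ from that share. TUBB, a beta tubulin with near-identical copies that its probe sets may share, read 44555 with PIAS1 shRNA2 and 62289.5 with control shRNA in SCM, and 98703 with PIAS1 shRNA2 and 88276 with control shRNA in DMEM, the lowest knockdown ratio of the list in SCM at -0.48.

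Of 5 CDK inhibitors above the floor, 2 were at least 2-fold higher in SCM than in DMEM in both lines. Of all genes, 10.9% were that much higher with PIAS1 shRNA2 and 10.7% with control shRNA. CDKN1A, which encodes p21, read 16072 with PIAS1 shRNA2 and 16066 with control shRNA in SCM, and 2876 with PIAS1 shRNA2 and 2291 with control shRNA in DMEM, a log2 ratio of SCM over DMEM of 2.48 with PIAS1 shRNA2 and 2.81 with control shRNA. CDKN1C, which encodes p57, read 3483 with PIAS1 shRNA2 and 4211 with control shRNA in SCM, and 1313 with PIAS1 shRNA2 and 1227 with control shRNA in DMEM. The lines were level for CDKN1A in SCM, and 0 of the 5 inhibitors differed 2-fold between the lines in either medium. Of all genes, 1.44% were at least 2-fold lower and 2.14% higher in SCM, and 0.842% and 1.52% in DMEM. A list of 5 genes is too small for a count of 0 to differ from these shares. The part of the inhibitors in the results above was not tested.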
